A study of Mus musculus with 8 samples.

Results

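Early response genes are the transcripts that a cell makes within minutes to hours of an antigen receptor signal, a growth signal or a stress. A set of 35 of them was followed here, out of 24421 genes counted, in follicular regulatory T (TFR) cells from mouse spleen. The 35 were chosen by name, as AP-1, EGR, NR4A, DUSP and other early response genes, with no measured value in the rule. Earlier results of these data were known when they were chosen, so the counts below are descriptions and not independent support. Of the 8 poly(A) RNA libraries, 4 were labelled WT and 4 came from mice with the genotype Blimp1-flox (Blimp1) Foxp3-cre, called Blimp1-flox here. Mice of both groups had been given 2 oral challenges of peanut with cholera toxin, and their splenic CD4+ T cells were taken 36 days later and sorted as Foxp3+YFP+ CXCR5+ PD1+ cells. Foxp3 drives the Cre in this model, so deletion is aimed at every Foxp3+ cell and not at TFR cells alone. The labels give no age or sex, do not state whether WT mice carried Foxp3-cre, and do not say that the libraries of a group were separate mice. The tests below therefore measure the spread between libraries, part of which may be technical.

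In T cells, binding of the antigen receptor activates calcium, Ras and MAP kinase signals, and factors that are already in the nucleus, such as CREB and SRF, switch on Fos, Egr and Nr4a genes without new protein synthesis. The products include AP-1 and EGR transcription factors that carry the signal on, and a large set of brakes. DUSP phosphatases inactivate MAP kinases, and ZFP36 and BTG proteins bring the deadenylation machinery to short-lived mRNAs. Regulatory T cells depend on tonic antigen receptor signals, and NR4A receptors support their Foxp3 expression. The same genes respond to cell isolation and sorting, so their level in freshly sorted cells can hold both the state in the spleen and the handling.

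Many members share sequence features that the choice by name did not use. RefSeq starts on GRCm38.p6, the assembly behind mm10, were matched by symbol for 26 of the 35 members, and the 250 bases before each start were searched on both strands. Egr1, Egr3, Zfp36l2, Dusp4, Fosl1, Cd69, Myc, Rgs1 and Ier2 had no entry. The core of the cyclic AMP response element, TGACG, lay in 15 of the 26 windows (57.7%) and in 17.8% of all 32851 windows of that length. Its full palindrome TGACGTCA lay in those of Btg2, Dusp1 and Ppp1r15a (11.5%, against 1.55% of all windows). The CArG box, bound by SRF, lay in those of Dusp5, Egr2 and Zfp36 (11.5%, against 1.47%). The EGR motif GCGNGGGCG lay in 8 windows (30.8%, against 4.70%), which places it upstream of Btg2, Dusp2, Fosb, Fosl2, Klf4, Nr4a1, Nr4a2 and Zfp36. By contrast a loose AP-1 pattern, TGANTCA with any base at N, lay in 1 window (3.85%, against 6.75%). That was the window of Zfp36l1, where it read TGATTCA. A loose form of the Blimp1 motif core, GNGAAAG with any base at N, lay in 9 windows (34.6%, against 19.4%). It read GTGAAAG on 1 of the strands only for Fos and Jund, and GAGAAAG or GGGAAAG in the other windows. No share was taken for the GTGAAAG form alone. These matches describe letters in a window and are not evidence of binding.

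The stretches of 150 bases just before the start of 7 members are printed 5′ to 3′ on the gene's strand, with TGACG in either orientation, CArG boxes and EGR motifs in capitals. Ppp1r15a and Btg1 are shown because their libraries did not overlap between the genotypes. Fos, Dusp1 and Zfp36 are shown as members with a fold change above 0, Nr4a1 as the usual reporter of antigen receptor signals, and Dusp5 for its pair of adjacent CArG boxes.
Ppp1r15a (chr7:45526269-45526418, minus strand): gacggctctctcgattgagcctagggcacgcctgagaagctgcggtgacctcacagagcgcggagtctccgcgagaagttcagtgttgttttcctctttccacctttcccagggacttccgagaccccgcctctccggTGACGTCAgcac
Btg1 (chr10:96616851-96617000, plus strand): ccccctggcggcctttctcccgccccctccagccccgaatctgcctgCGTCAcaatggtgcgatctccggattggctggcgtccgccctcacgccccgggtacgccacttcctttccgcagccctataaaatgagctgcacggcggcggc
Fos (chr12:85473740-85473889, plus strand): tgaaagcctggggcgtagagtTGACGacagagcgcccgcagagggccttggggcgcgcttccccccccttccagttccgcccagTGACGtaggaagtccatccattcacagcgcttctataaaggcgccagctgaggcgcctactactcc
Dusp1 (chr17:26508473-26508622, minus strand): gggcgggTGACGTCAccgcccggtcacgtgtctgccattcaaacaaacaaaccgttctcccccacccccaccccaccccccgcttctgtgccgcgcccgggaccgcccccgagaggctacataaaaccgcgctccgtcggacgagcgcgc
Nr4a1 (chr15:101266696-101266845, plus strand): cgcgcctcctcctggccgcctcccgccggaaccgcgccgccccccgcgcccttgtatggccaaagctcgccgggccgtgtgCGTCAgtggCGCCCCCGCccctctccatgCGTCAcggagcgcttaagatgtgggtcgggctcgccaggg
Dusp5 (chr19:53528995-53529144, plus strand): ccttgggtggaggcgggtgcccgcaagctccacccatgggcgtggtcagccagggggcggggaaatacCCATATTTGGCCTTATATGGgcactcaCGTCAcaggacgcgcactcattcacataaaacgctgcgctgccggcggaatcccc
Zfp36 (chr7:28379229-28379378, minus strand): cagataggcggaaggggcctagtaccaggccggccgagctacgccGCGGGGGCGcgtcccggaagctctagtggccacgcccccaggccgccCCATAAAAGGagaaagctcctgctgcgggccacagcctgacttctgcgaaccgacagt
The full palindrome begins at position -12 from the start of Ppp1r15a and at -143 from that of Dusp1, genes whose difference between the genotypes was -0.46 and 0.05 on the log2 scale. In Btg2, the other member with the full palindrome, the difference was -0.06. Whether members with and without these letters differ was not tested.

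Library totals ran from 16425538 to 27595939 counts. The 35 members took 1.81% to 2.35% of the counts in WT and 1.80% to 2.02% in Blimp1-flox. Prdm1, which encodes Blimp1, held 39.1, 31.8, 65.1 and 71.0 CPM (counts scaled to a common library size by TMM) in the 4 WT libraries, against 13.4, 7.53, 9.60 and 16.6 CPM in Blimp1-flox. It fell by 2.14 ± 0.31 (SE) on the log2 scale (edgeR quasi-likelihood adjusted p = 0.0203), a call that leaving out Blimp1-flox 1 ended (adjusted p = 0.103). Markers of the sorted cells were present in every library, with Cd3e at 1220 to 1655 CPM, Cd4 at 1070.4 to 1352 CPM and Cxcr5 at 391 to 568 CPM. Foxp3 itself lay at 72.5 to 105 CPM in WT libraries beside 55.7 to 75.5 CPM in Blimp1-flox (log2 fold change -0.40 ± 0.13, SE; edgeR adjusted p = 0.176), a difference of the size seen in several members, and its part in their values was not tested. Of 11 B cell markers 10 had a negative log2 fold change. Apart from Cd22, which lay between 167 and 240 CPM everywhere, they summed to 70.4, 66.8, 151 and 619 CPM in WT and to 31.7 to 39.5 CPM in Blimp1-flox, and none was at 0 in any WT library. All 12 tested myeloid markers had a positive log2 fold change. Their list of 13 summed to 109 to 145 CPM across WT, compared with 100.5 to 245 CPM in Blimp1-flox. Lyz2, Cd14, S100a8 and Itgax were at 0 in Blimp1-flox 3. S100a8 was also at 0 in WT 1, and Itgam and Itgax were at 0 in WT 4. WT 1 and WT 3 held 1.74 and 1.98 CPM of pancreas acinar transcripts and the other 6 libraries 12.3 to 62.4 CPM. In Blimp1-flox 4 Prss2 alone made up 11.9 of 12.3 CPM. Without Prss2 the list summed to 0.242, 0.790 and 0.383 CPM in WT 1, WT 3 and Blimp1-flox 4, and to 6.08 to 44.2 CPM in the other 5 libraries, so both genotypes then held low and high libraries. Plasma cell markers summed to 19.4 to 29.9 CPM in the WT libraries, against 9.998 to 89.4 CPM in Blimp1-flox, CD8 and NK markers to 28.9 to 45.0 and 49.5 to 51.5 CPM, and erythroid and platelet markers to 14.9 to 31.1 and 7.52 to 15.6 CPM. In bulk RNA, fewer cells of a type and less RNA per cell cannot be told apart.

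Many members were among the most abundant transcripts of these cells. On the RPKM scale (CPM per kilobase of exon), which allows genes to be compared, 5 of the 35 ranked in the top 1% and 21 in the top 10% of 12363 tested genes. Junb, an AP-1 subunit that effector regulatory T cells need, ranked 4 with 3073 ± 629 RPKM in WT and 2633 ± 254 RPKM in Blimp1-flox (SD, n = 4). It held 23.7% to 29.8% of all member counts. Dusp1, a nuclear phosphatase of p38 and JNK, ranked 10 with 1472 ± 168 and 1526 ± 47.0 RPKM. The next were Fos (rank 45), Ppp1r15a (62) and Rgs1 (87). At the low end stood Atf3, Fosl2, Egr3 and Ier3, all between 2.28 and 5.47 RPKM in both groups, and Fosl1 with 0.224 and 0.385 RPKM. All 35 members passed the filter on low counts, Fosl1 with only 2 to 22 counts in a library. Exons of Fosl1 share 67.7% of their bases with Ccdc85b on the other strand, so its counts are uncertain.

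**Figure D1:**
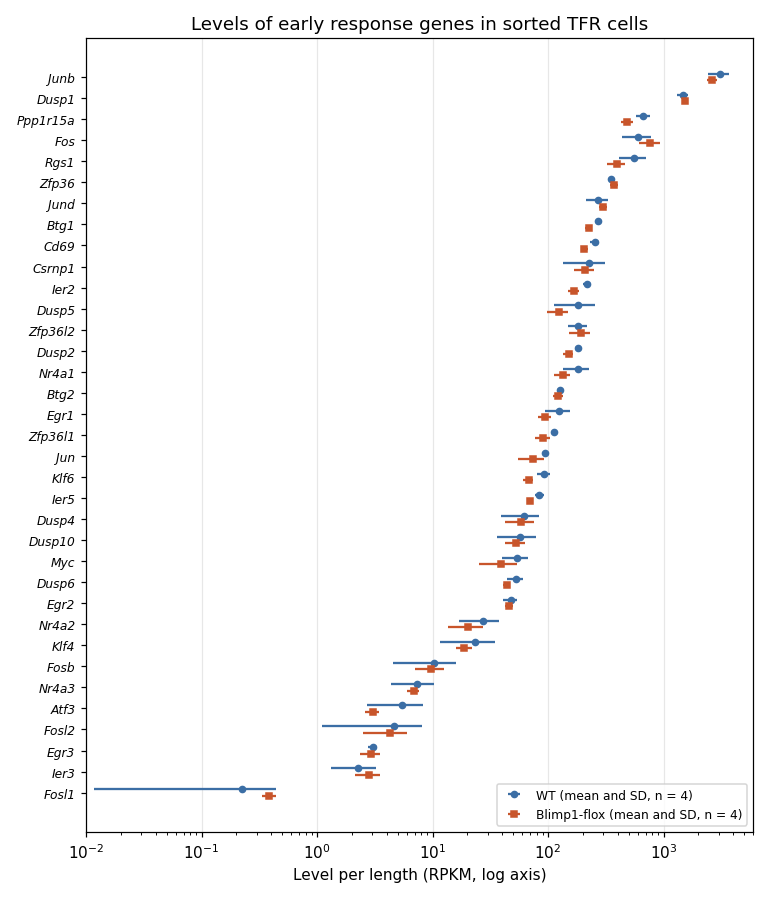
Level per length (RPKM, log axis) of the 35 early response genes, as mean and SD over 4 WT (circles) and 4 Blimp1-flox (squares) libraries, ordered by the WT mean. Junb and Dusp1 stand highest and Fosl1 lowest in both groups, and the WT bars of Fosl2, Fosb, Klf4 and Csrnp1 are wide.

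The comparison of the genotypes addressed whether loss of Blimp1 alters gene expression in TFR cells. No early response gene passed the test over all genes, while 28 of 35 had a log2 fold change below 0, against 49.9% of all genes tested. The lowest adjusted p was 0.103, shared by Ppp1r15a, Klf6 and Ier2 (edgeR), against 0.501% of all 12363 genes called in either direction. At an unadjusted p under 0.05 stood 15 members, all lower in Blimp1-flox (42.9%), against 9.05% of all genes in that direction. The median log2 fold change was -0.25 for the members and 0.00 for all genes tested. DESeq2 called 4 members lower (11.4%, against 2.10% of all genes), namely Ppp1r15a, Klf6, Ier2 and Btg1. Limma-voom with quality weights called the same 4 and Zfp36l1 (14.3%, against 2.27%). Without WT 1 the median went to -0.087 and 22 members stayed below 0, with 10 lower and 2 higher at an unadjusted p under 0.05. Without WT 1 and WT 3, the pair with the lowest sums over the whole pancreas list, the median was -0.051 with 20 below 0. In that fit 13 members stood at an unadjusted p under 0.05, 9 of them lower, while Fos, Fosl1, Jund and Ier3 were higher. The share of all genes at that threshold was not taken without WT 1 or without WT 1 and WT 3. Rgs1 was called by edgeR without WT 1 and WT 3, in a fit that called 305 of 12774 genes. With a term for the low and high classes over the list without Prss2, the median was -0.19 and 23 members were below 0. Klf6, Ier2 and Rgs1 passed in edgeR with that term (adjusted p = 0.0343, 0.0468 and 0.0455), in a fit that called 342 of 12363 genes. This term and the fit without WT 1 and WT 3 were chosen after the data were seen.

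**Figure D2:**
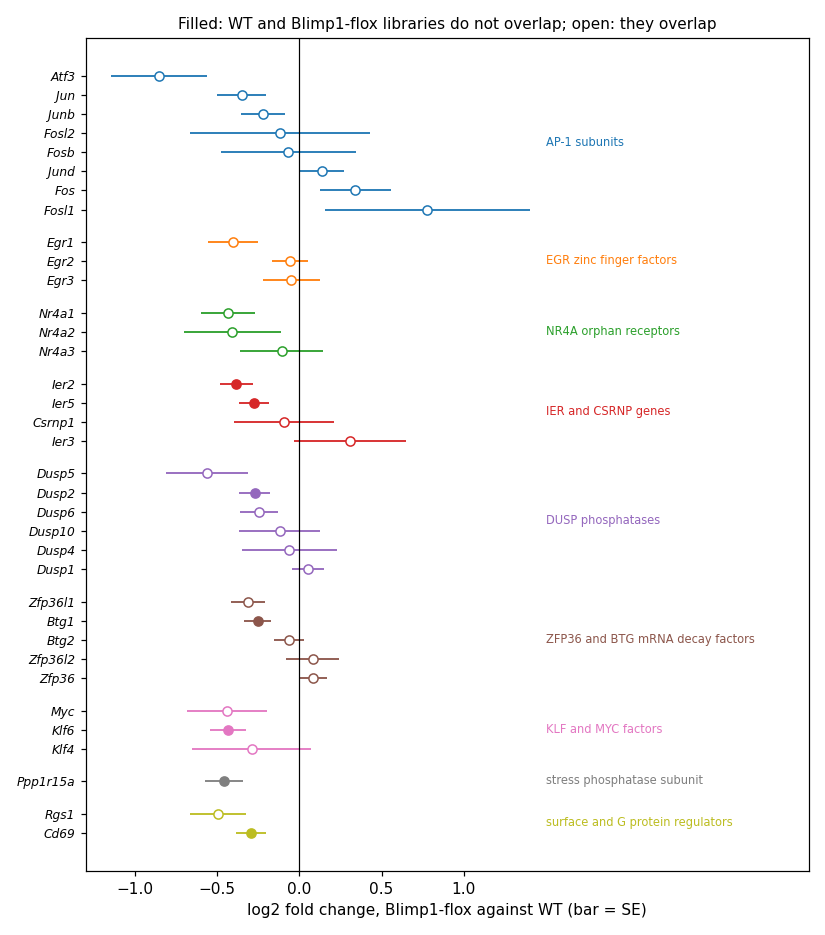
Log2 fold change of Blimp1-flox against WT for each member, grouped by role, with its standard error as a bar. Filled points mark the 7 members whose WT and Blimp1-flox libraries do not overlap, all to the left of 0.

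In 7 members every WT library lay above every Blimp1-flox library (20.0%, against 4.72% of all genes), and no member had the reverse order. Ppp1r15a, the stress-induced GADD34 subunit that directs protein phosphatase 1 to eIF2 alpha and so restores translation, held 1765, 1711, 1393 and 1352 CPM across WT, compared with 1003, 1292, 1185 and 1043 CPM in Blimp1-flox. WT 1 and WT 2 were high, and WT 4 exceeded Blimp1-flox 2 by a small margin. The log2 fold change of Ppp1r15a was -0.46 ± 0.12 (SE), a level at 72.7% of WT, with an adjusted p of 0.103 in edgeR, 0.0110 in DESeq2 and 0.0208 in limma-voom. Exons of Ppp1r15a overlap Tulp2 on the other strand over 11 bases (0.471%), and Tulp2 had 10 to 30 counts.

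Klf6, a zinc finger factor induced by activation, held 401, 380.3, 322 and 443 CPM in the WT libraries, against 270.3, 299.7, 318 and 256 CPM in Blimp1-flox. WT 3 lay just above Blimp1-flox 3, and the other WT libraries were at least 380.3 CPM. For Klf6 the log2 difference came to -0.43 ± 0.11 (SE; edgeR adjusted p = 0.103; DESeq2 adjusted p = 0.0131). Ier2, a small nuclear protein induced by growth signals, held 341, 312, 306 and 361 CPM across WT, compared with 239, 265, 284 and 224 CPM in Blimp1-flox, with WT 4 the highest. Its log2 fold change was -0.38 ± 0.10 (SE; edgeR adjusted p = 0.103; DESeq2 adjusted p = 0.0149). Ier5, an activator of the heat shock factor HSF1, held 246, 273, 273 and 307 CPM in the WT libraries, against 244, 225, 219 and 219 CPM in Blimp1-flox. Here WT 1 and Blimp1-flox 1 nearly met.

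Btg1, an antiproliferative adaptor of the CCR4-NOT deadenylase that keeps T cells quiescent, had the tightest libraries of the 7. It held 1332, 1301, 1370.0 and 1378 CPM across WT, compared with 1118, 1233, 1082 and 1077 CPM in Blimp1-flox. Its log2 fold change was -0.26 ± 0.08 (SE; edgeR adjusted p = 0.184; DESeq2 adjusted p = 0.0499). Cd69, the activation antigen that holds lymphocytes in tissue by removing the egress receptor S1PR1, held 424, 451, 375 and 389 CPM in the WT libraries, against 306, 337, 358 and 336 CPM in Blimp1-flox. Dusp2, a nuclear phosphatase of ERK and p38 in activated lymphocytes, held 279, 288, 289.6 and 321 CPM across WT, compared with 213, 250.4, 271 and 239.8 CPM in Blimp1-flox. The levels of these 3 genes in Blimp1-flox were 83.8%, 81.6% and 82.8% of WT, and neither Cd69 nor Dusp2 passed in edgeR (adjusted p = 0.171 and 0.200).

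**Figure D3:**
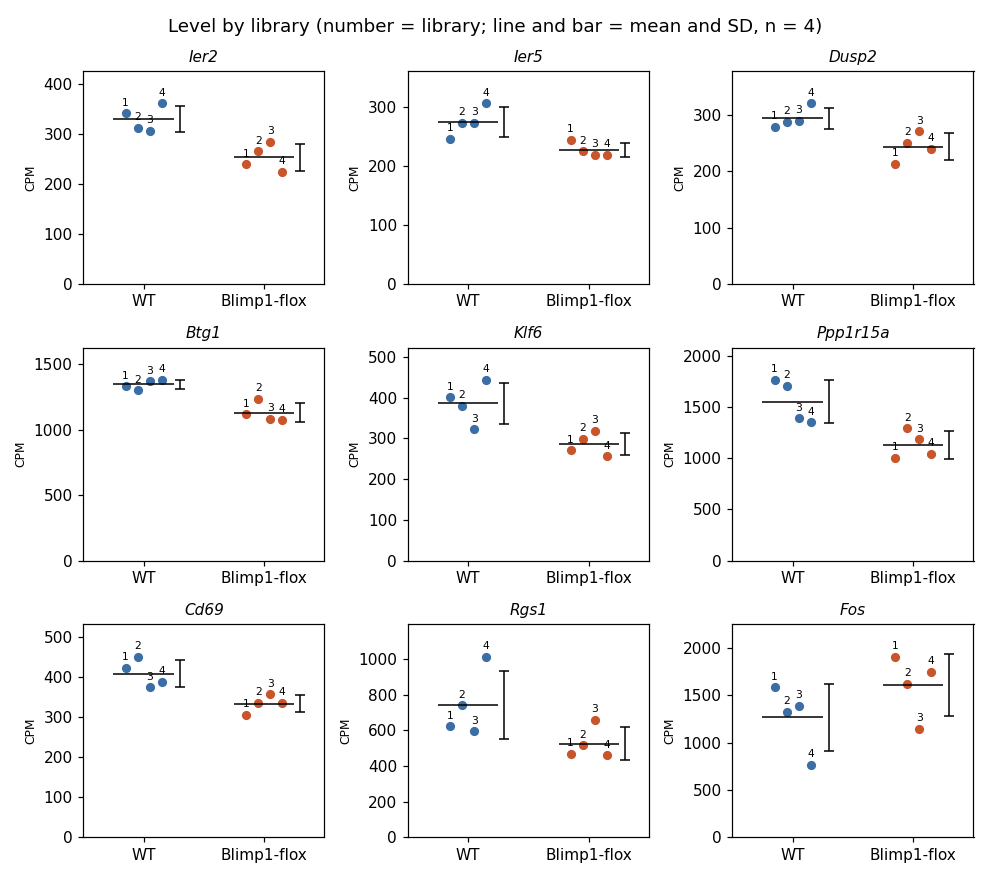
Level in each library (CPM from 0, points numbered by library) of the 7 members without overlap and of Rgs1 and Fos, with mean and SD (n = 4) in black. In the first 7 panels every WT point lies above every Blimp1-flox point, while Fos spans 767 to 1584 CPM in the WT libraries, against 1146 to 1906 CPM in Blimp1-flox.

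Without WT 1, the highest WT library in 20 members, the log2 fold changes of Ppp1r15a, Klf6, Ier2, Ier5, Btg1, Cd69 and Dusp2 were -0.39, -0.42, -0.37, -0.33, -0.26, -0.28 and -0.30. Without WT 4, the library highest in B cell transcripts, they were -0.52, -0.36, -0.34, -0.22, -0.24, -0.32 and -0.23. Their direction thus held without either library, as it did in the 20 alternatives tried. In none of the fits that left out a single library did any of them pass in edgeR. With the pancreas class term their values were -0.47, -0.48, -0.42, -0.30, -0.26, -0.30 and -0.29, and of the 7 only Klf6 and Ier2 passed.

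AP-1 subunits did not move as 1 group, with 5 of 8 below 0 and a median of -0.094. Fos, the partner that gives AP-1 its strength, held 1584, 1328, 1391 and 767 CPM across WT, compared with 1906, 1623, 1146 and 1746 CPM in Blimp1-flox. WT 4 and Blimp1-flox 3 were the low library of each genotype, and the groups overlapped (log2 fold change 0.34 ± 0.22, SE; edgeR adjusted p = 0.461). Jun held 292 to 312 CPM over the WT libraries and 312, 234, 164 and 232 CPM in Blimp1-flox. Its WT libraries were the closest of any AP-1 gene, and Blimp1-flox 1 lay inside their range (log2 fold change -0.35; edgeR adjusted p = 0.280). Junb, which can replace Jun in the dimer, held 7188, 5643, 5394 and 4390.2 CPM in the WT libraries, against 4947, 5412, 4732 and 4285 CPM in Blimp1-flox. Jund, the growth-restraining Jun protein, stood at 0.14 ± 0.14 (SE) on the log2 fold change scale, with an edgeR adjusted p of 0.654.

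The inducible Fos relatives varied most between libraries of 1 genotype. Fosl2 held 57.0, 18.7, 21.9 and 10.4 CPM across WT, compared with 24.9, 36.8, 11.7 and 26.1 CPM in Blimp1-flox, a 5.45-fold range within WT. Fosb stood at 67.1, 38.7, 33.5 and 14.998 CPM across WT, a 4.47-fold range, compared with 24.6 to 49.9995 CPM in Blimp1-flox. Both had a log2 fold change near 0, -0.12 ± 0.55 and -0.07 ± 0.41 (SE). Fosl1 had 22, 4, 9 and 2 counts in WT and 10, 17, 21 and 13 counts in Blimp1-flox, too few to place its log2 fold change of 0.78 ± 0.62 (SE). Atf3, a stress-induced repressor, had the lowest log2 fold change of all members, -0.86 ± 0.29 (SE; edgeR adjusted p = 0.194). It held 18.7, 7.69, 7.02 and 9.77 CPM in the WT libraries, against 6.14, 7.15, 5.36 and 5.24 CPM in Blimp1-flox. The high value of WT 1 set much of that difference, and without it the log2 fold change was -0.45.

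Among the EGR factors, Egr1, the first zinc finger factor made after receptor signals, held 517, 345, 374 and 303 CPM across WT, compared with 240.0, 332, 297 and 292 CPM in Blimp1-flox. Its log2 fold change was -0.41 ± 0.15 (SE; edgeR adjusted p = 0.236), and -0.23 without WT 1. Egr2, which restrains T cell activation, held 127 to 169 CPM in the WT libraries, against 124 to 148 CPM in Blimp1-flox. Its relative Egr3 lay at 10.7 to 13.3 and 9.31 to 14.4 CPM, and the genotypes overlapped in both genes. All 3 NR4A receptors had a negative log2 fold change. Nr4a1 (Nur77), a reporter of antigen receptor strength, held 603, 457, 377 and 354 CPM across WT, compared with 283, 383, 370.5 and 289 CPM in Blimp1-flox. WT 1 was far above the rest and WT 4 lay among the Blimp1-flox libraries (log2 fold change -0.43 ± 0.17, SE; edgeR adjusted p = 0.240; -0.26 without WT 1). Nr4a2 stood at 136, 97.4, 73.1 and 56.7 CPM across WT, compared with 52.9, 101, 67.3 and 51.8 CPM in Blimp1-flox (log2 fold change -0.41 ± 0.30, SE). Nr4a3 stood at 62.8, 43.2, 37.4 and 22.1 CPM across WT, compared with 34.7, 44.8, 36.9 and 36.9 CPM in Blimp1-flox (-0.11 ± 0.25, SE). In both genes the WT libraries alone spanned more than 2-fold, and in Nr4a3 they enclosed all 4 Blimp1-flox libraries.

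Of the 6 DUSP phosphatases only Dusp2 separated the genotypes. Dusp5, which holds ERK inactive in the nucleus, held 330.3, 197, 175 and 142 CPM in the WT libraries, against 120.4, 183, 148 and 120.1 CPM in Blimp1-flox. Dusp6, its cytoplasmic counterpart, held 154, 145, 169.6 and 116 CPM across WT, compared with 110.2, 129.6, 126 and 126 CPM in Blimp1-flox. The log2 fold changes of Dusp5 and Dusp6 were -0.56 ± 0.25 and -0.25 ± 0.11 (SE; edgeR adjusted p = 0.306 and 0.308), and that of Dusp5 was -0.26 without WT 1. Dusp1 was level, with 2409 to 3175 CPM in the WT libraries, against 2854 to 3060.0 CPM in Blimp1-flox and a log2 fold change of 0.05 ± 0.10 (SE). Dusp4, induced by ERK, and Dusp10, a phosphatase of JNK and p38, had log2 fold changes of -0.06 ± 0.29 and -0.12 ± 0.25 (SE). Dusp4 ran from 203 CPM in WT 1 to 87.7 CPM in WT 4 and from 91.7 to 176 CPM in Blimp1-flox. Dusp10 ran from 228 CPM in WT 1 to 101 CPM in WT 4 and from 107 to 176 CPM in Blimp1-flox, so in both genes the WT libraries enclosed the Blimp1-flox ones.

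Among the mRNA decay factors, Zfp36l1 held 323, 354, 326 and 345 CPM across WT, compared with 255, 273, 324 and 232 CPM in Blimp1-flox. Blimp1-flox 3 lay just inside the WT range and the other 3 below it (log2 fold change -0.31 ± 0.10, SE; edgeR adjusted p = 0.189; limma-voom adjusted p = 0.0264). Zfp36 (tristetraprolin), the best known binder of AU-rich elements, had 582 to 644 CPM in the WT libraries, against 595 to 705 CPM in Blimp1-flox. Its log2 fold change was 0.08 ± 0.09 (SE), and that of Zfp36l2 was 0.08 ± 0.16 (SE), with 482 to 759 CPM in WT libraries beside 533 to 861 CPM in Blimp1-flox. Btg2, the relative of Btg1, had -0.06 ± 0.09 (SE), with 360.2 to 413 CPM across WT, compared with 344 to 427 CPM in Blimp1-flox. Btg1 thus separated the genotypes while Btg2 overlapped. Every ZFP36 gene overlapped, and only in Zfp36l1 did 3 of 4 Blimp1-flox libraries lie below the WT range. The difference between paralogues was not tested.

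Rgs1, which speeds the shut-off of chemokine receptor signals, held 622, 740.2, 595 and 1011 CPM in the WT libraries, against 467, 517, 660.1 and 461 CPM in Blimp1-flox. Myc, the growth and metabolism factor that Blimp1 represses in plasma cells, held 112, 114, 109 and 179 CPM across WT, compared with 66.8, 84.0, 144 and 83.2 CPM in Blimp1-flox. In both genes WT 4 was the highest WT library and Blimp1-flox 3 the highest Blimp1-flox library, the same pair that was lowest in Fos. The log2 fold changes were -0.50 ± 0.17 for Rgs1 and -0.44 ± 0.25 for Myc (SE; edgeR adjusted p = 0.198 and 0.409). Without WT 4 they were -0.31 and -0.24. Rgs1 passed in edgeR without WT 1 and WT 3 (-0.74, adjusted p = 0.0492) and with the pancreas class term (-0.58, adjusted p = 0.0455). These fits called 305 of 12774 and 342 of 12363 genes. Klf4, which maintains T cell quiescence, went from 28.5 CPM in WT 4 to 108 CPM in WT 1 and from 49.5 to 67.2 CPM in Blimp1-flox (log2 fold change -0.29 ± 0.36, SE). Csrnp1, a nuclear factor first described as induced by AXIN1, held 919, 714, 658 and 298 CPM in the WT libraries, against 456, 753, 616 and 599.8 CPM in Blimp1-flox. Ier3, a survival factor, lay at 1.49 to 3.79 and 2.23 to 4.004 CPM.

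The order of libraries within WT was shared by many members. WT 1 was the highest WT library in 20 of 35 members (57.1%) and in 27.5% of all genes. WT 4 was the lowest in 22 (62.9%) and in 30.8% of all genes. Both held at once in 19 members (54.3%), against 13.4% of all genes. In 13 members the WT libraries differed by more than 2-fold, with WT 1 highest in all 13 and WT 4 lowest in 12, the exception being Atf3. Only 3 members, Fosl2, Fosb and Myc, did so in Blimp1-flox. WT 4 was the highest WT library in 8 members (22.9%, against 30.8% of all genes). These were Egr3, Ier2, Ier5, Dusp2, Btg1, Klf6, Myc and Rgs1, and 5 of them are among the 7 without overlap. Set against its own WT mean on the log2 scale, the median member stood at 0.26 in WT 1 and -0.31 in WT 4. In Blimp1-flox 1 to 4 it stood at -0.27, -0.065, -0.17 and -0.28, so WT 4 was lower than all 4 of them. Over all genes tested these medians lay between -0.00035 and 0.0087.

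**Figure D4:**
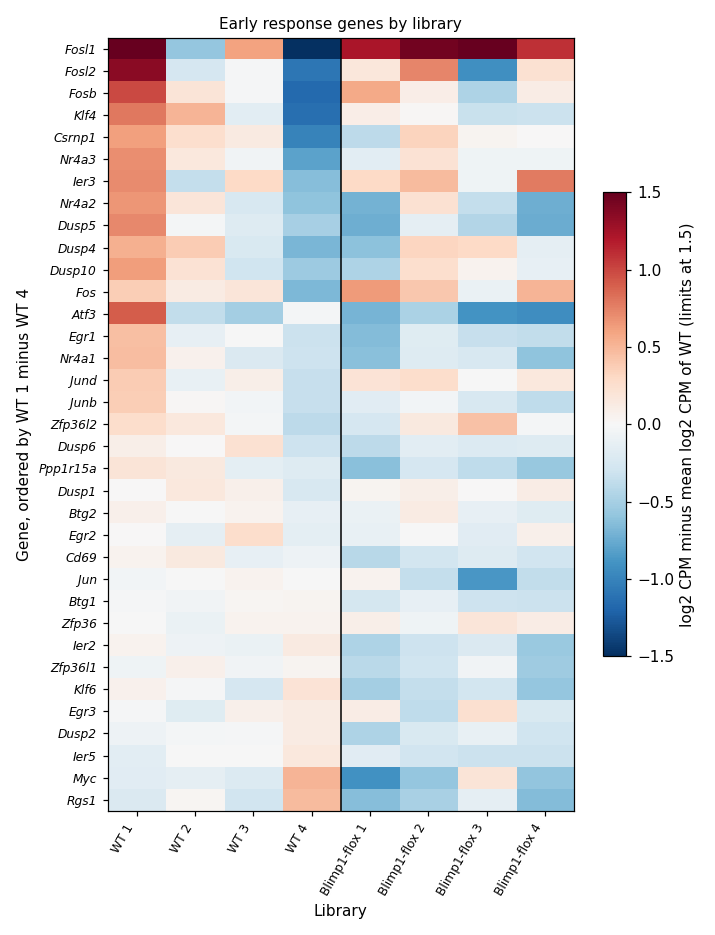
Log2 CPM of each member in each library minus its mean log2 CPM in WT, with genes ordered by the difference between WT 1 and WT 4. Genes at the top run from high in WT 1 to low in WT 4 with mixed Blimp1-flox values, and genes near the bottom such as Ier2, Dusp2, Klf6 and Ier5 are lower in every Blimp1-flox library than in any WT library. At the very bottom Myc and Rgs1 are highest in WT 4.

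The pooled SD of log2 CPM within a genotype had a median of 0.27 over the members and 0.21 over all genes tested. The plot of WT range against fold change is a description only, since a wide range within WT by itself makes overlap more likely and a low p less likely. Heat shock genes, which respond to handling, summed to 7103 CPM in WT 1, 5946 to 5969 CPM in the other WT libraries and 5087 to 6199 CPM in Blimp1-flox. WT 1 was the highest of all 8 libraries for this sum, and for 16 of the 35 members. The part of handling and of B cell RNA in WT 4 in the member levels was not tested.

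**Figure D5:**
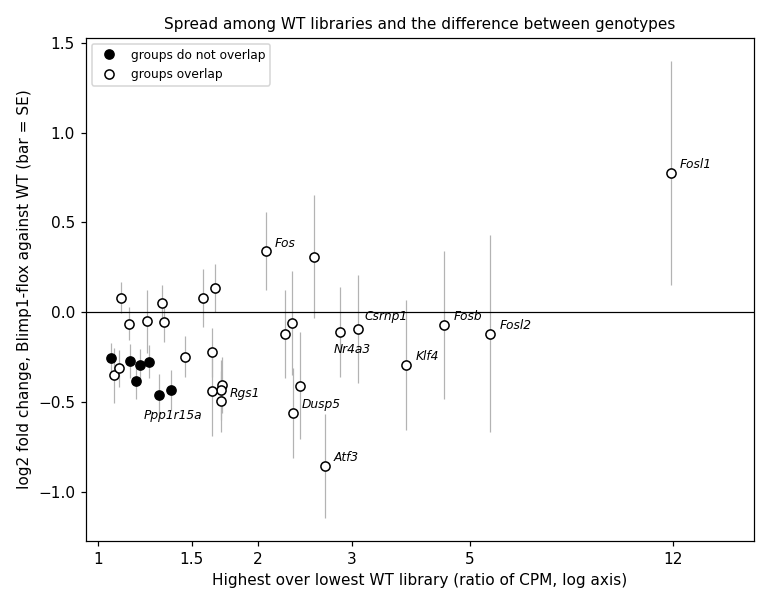
Ratio of the highest to the lowest WT library (log axis) against the log2 fold change of Blimp1-flox against WT, with its standard error, for the 35 members. Filled points, members without overlap, lie at WT ratios of 1.06 to 1.37, and Fosl2 and Fosb, at 5.45 and 4.47, have wide bars around 0, while that of Fosl1 (11.9) lies above 0.

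Other genes of the same pathways were examined in 6 lists. Of 39 tested TCR-induced genes outside the members 1 fell, none rose and 27 were below 0, with a median of -0.16. That gene was Il2ra (CD25), which gives the IL-2 receptor its high affinity, at 81.3, 119, 89.7 and 121 CPM across WT, compared with 28.5, 43.8, 55.4 and 28.1 CPM in Blimp1-flox (log2 fold change -1.39 ± 0.23, SE; edgeR adjusted p = 0.0311). No Blimp1-flox library reached the WT range. Leaving out WT 2 or any of Blimp1-flox 1, 2 and 4 ended this call (adjusted p of 0.105, 0.1005, 0.0564 and 0.0599), as did leaving out WT 1 and WT 4 together (0.0675). At an unadjusted p under 0.05 stood 13 of the 39, with 10 lower and the other 3 higher, beside the 9.05% of all genes that were lower.

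None of the genes in the other 5 lists passed in edgeR. Over all 6 lists, which name 143 genes, DESeq2 called 7 and limma-voom 12, beside 453 and 494 of all 12363 genes tested. At an unadjusted p under 0.05 stood 3 of 19 bZIP, 3 of 14 SRF or CREB, 1 of 20 decay and 1 of 14 phosphatase genes, all lower. Of 33 MAP kinase cascade genes 2 were lower and 6 higher at that threshold. Over all genes 9.05% were lower, and the share that was higher was not taken. The 19 bZIP partners of AP-1 had a median of -0.049, led by Bach2, a repressor that competes for AP-1 sites, at 22.4, 34.7, 23.1 and 34.4 CPM in the WT libraries, against 15.7, 20.0, 19.7 and 13.9 CPM in Blimp1-flox. All WT libraries of Bach2 lay above all Blimp1-flox libraries (log2 fold change -0.72 ± 0.18, SE; edgeR adjusted p = 0.103; DESeq2 adjusted p = 0.0110). The circadian bZIP repressor Nfil3 had -0.35 ± 0.20 (SE). The 33 genes of the Ras and MAP kinase cascades had a median of -0.020, with 19 below and 14 above 0. SRF and CREB factors (14 tested) had a median of -0.085, with the coactivators Ep300 at -0.29 and Mkl2 at -0.28. The 20 mRNA decay partners of ZFP36 and BTG had a median of -0.093, with Rc3h2 and Tob2 both at -0.30. Among 14 other dual-specificity phosphatases 11 were above 0, with a median of 0.16, and Dusp16 and Dusp14 stood at 0.36 and 0.32. In the heat shock list 13 of 15 were below 0, against 49.9% of all genes tested, with a median of -0.19 and 0 called. All 6 genes of that list at an unadjusted p under 0.05 were lower, beside 9.05% of all genes in that direction. Its lowest were Dnajb4 at -1.08 ± 0.23 (SE; edgeR adjusted p = 0.0579) and Hspa1b at -0.61 ± 0.27 (SE).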

How the data were processed

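The 8 libraries (4 WT, 4 Blimp1-flox) hold poly(A) RNA of TFR cells sorted from spleen; the labels name KAPA mRNA Hyperprep as the kit. The submitters' processing notes list STAR 2.5.2b, the build mm10 and Subread 1.5.1 with featureCounts. The authors deposited raw counts per gene, without normalization. The deposited table also holds another kind of value, the summed exon length, used here for RPKM. The annotation and the strand setting are not given in the sources used here.

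Genes were kept with filterByExpr (12363 genes), scaled by TMM (factors 0.976 to 1.02) and tested by edgeR 4.0.16 (R 4.3.3), whose quasi-likelihood fit held genotype alone. P-values were adjusted over all genes by Benjamini-Hochberg, with calls at an adjusted p under 0.05. Standard errors come from the F statistic. CPM and RPKM were computed from the deposited counts. DESeq2 1.42.0 and limma 3.58.1 (voom) were alternatives, with other scalings and filters, a replicate block, a pancreas class term and libraries left out. In simulated counts for Blimp1-flox against WT (12363 genes) edgeR recovered 34% of the genes given a 1.5-fold change, 82% at 2-fold and 92% at 4-fold. It also made 11 false calls among the genes left unchanged. Members, lists and alternatives were chosen with earlier results of these data known. All 35 members were named whatever their result, with Prdm1 and, of each pathway list, the called genes or else the 2 largest changes at a mean log2 CPM of at least 1. Those of the MAP kinase cascade list are not reported here. Sums were taken for cell type markers; Cd22 was set apart after its values were seen. B cell, pancreas acinar, myeloid, plasma cell, erythroid and CD8 or NK lists showed no called gene in edgeR.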

Additional observations from a re-analysis of the deposited data

Results flagged for a closer look

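Myc stood at 178.7 CPM in WT 4, against 109 to 114 CPM in the other 3 WT libraries, a gap that takes up nearly the whole range of the group. It was the 1 such case among 72 groups of 4 libraries screened (35 members and Prdm1 in each genotype), and chance alone marks about 1 group in 20. WT 4 also held the highest sum of B cell markers; their part in the Myc value was not tested, and without WT 4 the log2 fold change of Myc was -0.24 in place of -0.44.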

How the results depend on the processing

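Of 698 member fold changes recomputed under alternatives, 645 kept direction and side of the threshold, 13 passed it and 40, in 11 members, changed sign. Genes called, 62 as reported, numbered 453 with DESeq2, 494 with limma-voom, 182 at an adjusted p under 0.1, 157 without WT 4 and Blimp1-flox 3, 34 without WT 1 and WT 4, 305 without WT 1 and WT 3, 342 with the pancreas class term without Prss2 (these last 3 chosen after seeing the data) and 20 to 127 with 1 library left out (without WT 1 or WT 2, 127 and 27; with Blimp1-flox 1, 3 or 4 left out, 20, 94 and 23). Members called numbered 4, 5, 1 and 3 with DESeq2, limma-voom, without WT 1 and WT 3 and with the pancreas class term. Genes called over the pathway lists numbered 7 (DESeq2), 12 (limma-voom), 2 (no filter), 4 (adjusted p under 0.1), 6 (without WT 4 and Blimp1-flox 3), 0 (without WT 1 and WT 4), 5 (without WT 1 and WT 3, and with the pancreas class term) and 0 to 2 with 1 library left out. The member median was -0.051 without WT 1 and WT 3 and -0.31 to -0.087 with 1 library left out. Prdm1 stood at -2.14 with no filter (adjusted p = 0.0502, more genes tested) and at -2.36 to -1.95 with 1 library left out.

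Without WT 1 and WT 3 the sign turned for Fosb (0.46), Fosl2 (0.77), Egr2 (0.091), Nr4a3 (0.24), Csrnp1 (0.26), Dusp4 (0.072), Dusp10 (0.068) and Btg2 (7.1e-04). Without WT 1 and WT 4 it turned for Fosb (0.026), Fosl2 (0.29), Egr3 (6.1e-04) and Dusp1 (-0.058), and without WT 4 and Blimp1-flox 3 for Dusp1 (-0.0047) and Zfp36l2 (-0.17). The pancreas class term turned Fosb (0.14), Fosl2 (0.28), Egr2 (0.0072), Nr4a3 (0.0095) and Csrnp1 (0.036). Limma-voom turned Fosl2 (0.10) and Zfp36l2 (-0.015). With 1 library left out the ranges were Fosb -0.34 to 0.34, Fosl2 -0.39 to 0.55, Egr2 -0.11 to 0.038, Egr3 -0.16 to 0.044, Nr4a3 -0.32 to 0.17, Csrnp1 -0.33 to 0.12, Dusp1 -0.022 to 0.11, Dusp4 -0.25 to 0.13, Dusp10 -0.28 to 0.13 and Zfp36l2 -0.055 to 0.18. The cause was not tested. Same-numbered libraries correlated at 0.10, 0.15, -0.10 and -0.11, so the numbers do not pair them; the replicate block gave 52 calls, 0 members called, 26 members below 0, a member median of -0.21, and turned Fosb (0.060) and Fosl2 (0.046). A term for the classes of the whole pancreas list was not run, since with Prss2 included no Blimp1-flox library is low, and the stricter filter left out Fosl1. In simulated data with 4 libraries a group, 34% of 1.5-fold changes were recovered. No smaller change was simulated, and no rate was taken for the members alone. How often differences of the size seen in the members are missed was therefore not tested.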
